A study of Mus musculus with 4 samples.

Results

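The genes of the Twist, Snail and Zeb repressors were examined for Pax7 binding in mouse muscle progenitors. The 8 genes were Twist1, Twist2, Snai1, Snai2, Zeb1, Zeb2, Msc and Bhlhe40. A Pax7 peak was assigned to a gene when its summit, the position of highest signal, lay no more than 100 kb before the start or after the end of the gene on the mm9 (NCBIM37) genome. This gave 28 of the 20579 Pax7 peaks, and no peak was assigned to more than 1 of the 8 genes. The summit farthest from its gene was 80.7 kb outside it, at Zeb2 (7.67-fold enrichment), and the nearest summit left out was 128.6 kb away, at Zeb1 (4.20-fold).

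The cells were iPax7 cells, derived from mouse ES cells in which doxycycline (Dox) turns on a Pax7 transgene. They were differentiated in serum, received 1 µg/ml Dox from day 3, were sorted as PDGFRα+FLK1- on day 5, and were then grown with Dox and 10 ng/ml basic FGF. On day 9, after 6 days of Dox, 2 Pax7 ChIP libraries and 2 input libraries were made, and the authors merged the replicates before calling peaks. A peak therefore has 1 value and no spread between replicates, and the counts and medians given here carry no test between conditions. All libraries came from Dox-treated cells, so no Pax7-negative state was compared, and the cell type could not be checked against marker expression in a peak list. The number of reads behind a peak is not in the list, so the depth of a single value is unknown.

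Pax7 is a transcription factor with a paired domain and a homeodomain, and it marks muscle stem and progenitor cells. The proteins of these 8 genes all bind E-boxes, the short CANNTG motifs through which MyoD also acts, and they mostly repress transcription. Twist1, Twist2, Msc (also called MyoR, or musculin) and Bhlhe40 are basic helix-loop-helix (bHLH) factors, and the first 3 are known to restrain myogenic bHLH factors. Snai1 and Snai2 are zinc finger repressors of E-cadherin that drive epithelial-mesenchymal transition, and Zeb1 and Zeb2 combine zinc finger clusters with a homeodomain-like segment and repress many of the same targets.

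The sequences under the highest peak of each gene are shown first, to set those that held a Pax recognition motif beside those that did not. Each runs from 50 bp before to 50 bp after the summit on the plus strand of NCBIM37. Capitals mark the paired-box core GTCACG in either orientation (CGTGAC when on the minus strand), its first 5 letters GTCAC where the sixth did not match, and the E-box CACGTG, the only 1 of the 4 searched E-boxes that occurred in these windows. The full core was present at Snai1 and Bhlhe40 and absent from the other 4 shown. No sequence is shown for Zeb1, whose highest peak was distal and also held the core.
Snai1, chr2:167363583-167363683: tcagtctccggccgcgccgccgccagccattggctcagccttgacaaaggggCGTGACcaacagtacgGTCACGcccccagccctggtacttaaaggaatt
Bhlhe40, chr6:108609396-108609496: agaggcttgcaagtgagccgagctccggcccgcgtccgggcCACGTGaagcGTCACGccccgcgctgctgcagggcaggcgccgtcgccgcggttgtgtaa
Zeb2, chr2:44922894-44922994: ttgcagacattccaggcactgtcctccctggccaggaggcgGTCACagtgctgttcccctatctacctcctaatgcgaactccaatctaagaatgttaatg
Twist2, chr1:93757791-93757891: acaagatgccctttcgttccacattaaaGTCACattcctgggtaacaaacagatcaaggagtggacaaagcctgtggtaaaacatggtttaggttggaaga
Msc, chr1:14706280-14706380: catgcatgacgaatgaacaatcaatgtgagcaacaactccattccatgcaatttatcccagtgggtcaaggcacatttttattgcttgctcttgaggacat
Twist1, chr12:34664087-34664187: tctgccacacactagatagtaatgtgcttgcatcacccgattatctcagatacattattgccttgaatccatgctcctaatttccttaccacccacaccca

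Pax7 peaks were spread very unequally over the repressor genes. Zeb2 had 11, Zeb1 had 8, Snai1 and Bhlhe40 had 3 each, Twist1, Twist2 and Msc had 1 each, and Snai2 had 0. Thus 7 of the 8 genes had a peak, where 75.2% of the 22350 protein-coding genes did. Together the Zeb genes held 19 of the 28 peaks (67.9%). Both are long genes with wide windows, so the counts were also set against window length. Per 100 kb of window there were 2.65 peaks at the Zeb genes, 0.735 at the Snail genes and 0.700 at the 4 bHLH genes, whereas the median protein-coding gene had 0.916 and the sequenced genome 0.805. By gene, Zeb2 (3.30), Zeb1 (2.09), Snai1 (1.47) and Bhlhe40 (1.45) were above the median gene and the genome, and Twist1 (0.495), Msc (0.494), Twist2 (0.406) and Snai2 (0) were below both.

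**Figure D1:**
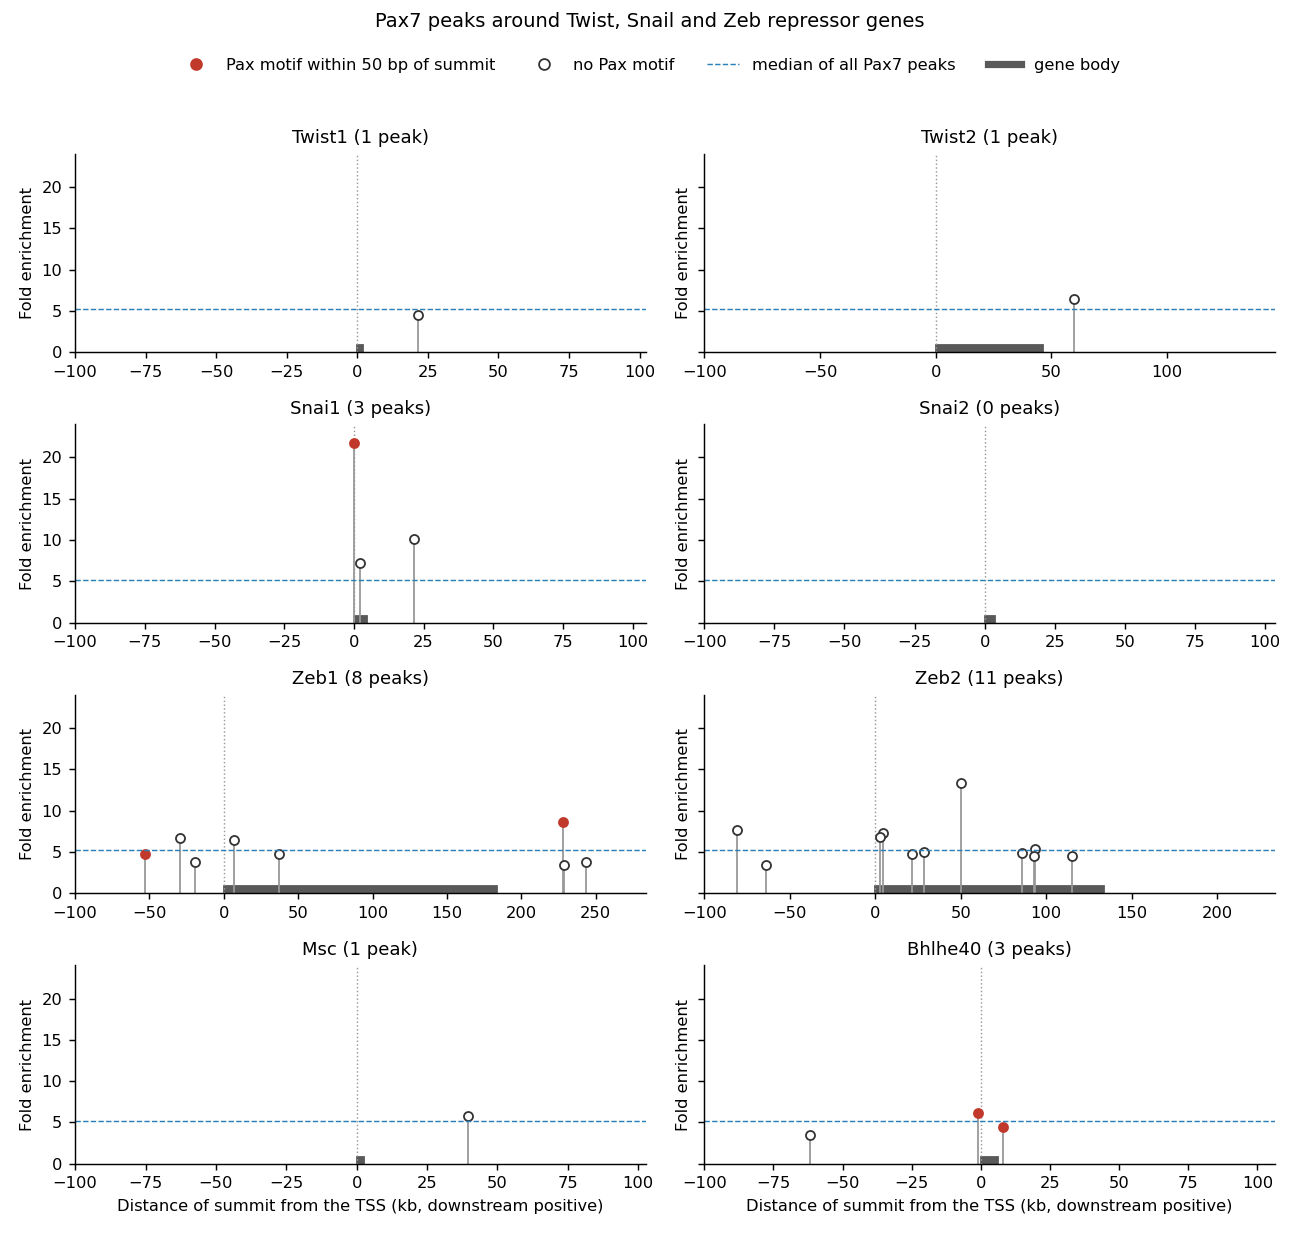
Each panel plots the Pax7 peaks of 1 gene, with the distance of the summit from the transcription start site (TSS, in kb, downstream positive) on the x axis and the fold enrichment on the y axis. Filled points have a Pax motif within 50 bp of the summit, the grey bar is the gene body and the dashed line is the median of all Pax7 peaks (5.22). The Snai1 promoter peak, at 21.7-fold, stands above every other point, and the 11 Zeb2 peaks lie mostly within the gene.

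Fold enrichment is the authors' value for the pooled ChIP over the local background at the summit. Over the 28 peaks the lowest value was 3.36, the highest 21.7 and the median 5.22. The median over all Pax7 peaks was also 5.22, and their quartiles were 4.32 and 6.74. Among the 28, 15 were enriched at least 5-fold (53.6%, 95% Wilson interval 35.8% to 70.5%), beside 54.9% of all peaks. At least 10-fold enrichment was found at 3 of the 28, beside 6.99% of all peaks. As a set, the peaks at these genes had the same median as the whole list, and the interval, which covers counting error only, was wide. The genes differed from each other: the 3 Snai1 peaks had a median of 10.1, the 19 Zeb peaks a median of 4.88 and the 6 peaks of the bHLH genes a median of 5.12.

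**Figure D2:**
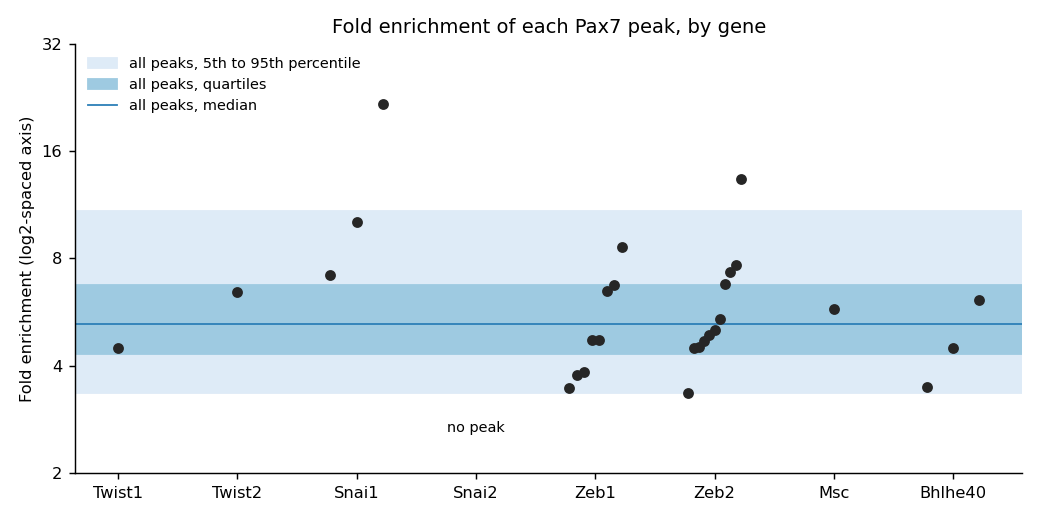
Fold enrichment (y axis, log2-spaced) of each Pax7 peak at each of the 8 genes (x axis), with each point 1 peak. The bands give the quartiles (4.32 to 6.74) and the 5th to 95th percentile (3.36 to 10.9) of all Pax7 peaks, and 2 points, the highest at Snai1 and at Zeb2, lie above the wider band.

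At Snai1, Pax7 was bound at the promoter itself. Snai1 (ENSMUSG00000042821.7) lies on the plus strand of chromosome 2 from 167363695 to 167368314. Its highest peak, from 167363487 to 167363786, had a fold enrichment of 21.7 and a −log10 q of 115, and its summit was 62 bp upstream of the TSS. It ranked 19 by fold enrichment among all 20579 peaks, and 3 among the 2870 peaks (13.9%) whose summit lay within 1 kb of a protein-coding TSS, where the median was 4.95. Compared by the highest peak within 100 kb, Snai1 was above 99.7% of all protein-coding genes.

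The Snai1 promoter peak held the paired-box core 2 times, as the sequence above shows. A minus-strand copy, from 167363635 to 167363640, was centred 4.5 bp from the summit, and a plus-strand copy, from 167363651 to 167363656, was centred 20.5 bp from it, with 10 bases between them. At least 2 cores within 50 bp of the summit were present in 109 of all peaks (0.530%) and in 1 of the 28. A minus-strand core followed by a plus-strand core was found at 18 peaks, and the Snai1 promoter was the only 1 of these with that spacing. Most spacings among the 18 were likewise found at 1 peak only, so this does not set Snai1 apart. The same spacing was also found at 1 peak with its cores in another orientation. This arrangement was looked up only after the sequence had been seen.

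A further 2 peaks stood near Snai1, both downstream of its TSS. One, from 167365807 to 167366116, had a fold enrichment of 7.20 and lay in an intron of Snai1, 2.26 kb from the TSS. The other, from 167384924 to 167385242, had a fold enrichment of 10.1, above 93.2% of all peaks, and lay in an intron of the noncoding transcript Gm11476, 21.4 kb from the TSS. All 3 were nearer to the TSS of Snai1 than to that of any other protein-coding gene, although Rnf114, Slc9a8, Spata2, Tmem189 and Ube2v1 also lie within 100 kb of each. The GC content over the 101 bp at the summit was 62.4%, 58.4% and 69.3%, against a median of 45.5% for all peaks.

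No Pax7 peak was found around Snai2, the paralog of Snai1 known for its role in neural crest. Snai2 (ENSMUSG00000022676.6) lies on the plus strand of chromosome 16 from 14705945 to 14709488, and 24.8% of all protein-coding genes likewise had no peak within 100 kb. The nearest summit, in the peak from 14904488 to 14904922, was 195 kb downstream of the gene, with a fold enrichment of 6.28, and was only 2.11 kb from the TSS of Efcab1. On the upstream side the nearest summit was 546 kb away. With pooled replicates, the error of the difference between these paralogs could not be estimated.

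Zeb2 had the most peaks of the 8 genes, and they lay mainly inside it. Zeb2 (ENSMUSG00000026872.8) occupies 44839154 to 44972915 of chromosome 2, on the minus strand. Of its 11 peaks, 9 lay within the gene and 2 upstream. More peaks were found within 100 kb than at 98.7% of all protein-coding genes, and 3.30 peaks per 100 kb exceeded 96.6% of them. Within the gene body there were 6.73 peaks per 100 kb, a density above that of 99.7% of the 2399 protein-coding genes of at least 100 kb, whose median was 0.813.

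The highest Zeb2 peak, from 44922733 to 44923136, had a fold enrichment of 13.4 and a −log10 q of 55.1, above 98.1% of all peaks. It lay in an intron 50.0 kb downstream of the most upstream TSS. The second, from 45053481 to 45053775, had 7.67-fold enrichment and was intergenic, 80.7 kb upstream of that TSS. The third was 7.32-fold enriched and ran from 44968541 to 44968777, inside an untranslated exon, 163 bp from the TSS of a shorter coding transcript, where the noncoding gene Gm13476 also has an exon. The peak nearest to the most upstream TSS, from 44970262 to 44970539, was 2.51 kb into the gene, in an intron, with 6.80-fold enrichment. It was 1.77 kb from the third peak, so that a pair of Pax7 peaks stood at the 5′ end of the gene. The other 7 ranged from 3.36-fold to 5.41-fold, and 6 of these were in introns of Zeb2. None of the 11 held a Pax motif as searched, and the highest held only GTCAC, 7 bp from its summit.

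Zeb1 had 8 peaks, more within 100 kb than 95.2% of all protein-coding genes, and 2.09 peaks per 100 kb exceeded 85.4% of them. The peaks were more scattered than at Zeb2. Zeb1 (ENSMUSG00000024238.5) lies on the plus strand of chromosome 18 from 5591858 to 5775465. Of its peaks 3 lay upstream, 2 within the gene and 3 downstream of its end. The 2 in the gene body made 1.09 per 100 kb, beside 6.73 at Zeb2, and exceeded 60.2% of long protein-coding genes. The highest, from 5819910 to 5820303, had a fold enrichment of 8.63 and a −log10 q of 38.7. It was intergenic, 44.6 kb beyond the end of Zeb1 and 228 kb downstream of the Zeb1 TSS. This peak held the paired-box core 12.5 bp from its summit. A weaker peak of 3.47-fold stood 422 bp from it.

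The second peak of Zeb1, from 5562251 to 5562578, had 6.72-fold enrichment and lay 29.5 kb upstream, in an intron of the neighbouring gene Gm10125. The third, 6.48-fold enriched and running from 5598257 to 5598575, was the nearest to the TSS, 6.57 kb downstream in an intron of Zeb1. The other 4 besides the 3.47-fold peak ranged from 3.76-fold to 4.71-fold. One of them, 52.7 kb upstream in Gm10125, held ATTAGTCA, the paired-box and homeobox sequence, 20.5 bp from its summit. Zeb1 and Zeb2 together thus had 2 peaks with a Pax motif among 19, both at Zeb1.

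Among the bHLH genes, Bhlhe40 alone had a peak close to its TSS. Bhlhe40, a circadian and stress-responsive repressor (ENSMUSG00000030103.5), lies on the plus strand of chromosome 6 from 108610623 to 108616919. Its highest peak, from 108609362 to 108609551, had a fold enrichment of 6.10 and a −log10 q of 13.9, above 66.8% of all peaks. The summit was 1177 bp upstream of the TSS, in an intron of the lincRNA 0610040F04Rik. It held the paired-box core 3.5 bp from the summit, and an E-box of the type CACGTG, which Bhlhe40 itself recognises, 6.5 bp to the other side, as printed above. This E-box occurred in 1.59% of all peaks and in 1 of the 28.

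A second Bhlhe40 peak, from 108618462 to 108618645, was intergenic, 7.90 kb downstream of the TSS, with 4.48-fold enrichment and a paired-box core 10.5 bp from its summit. The third, from 108548750 to 108548960, was 61.8 kb upstream in another part of 0610040F04Rik and had 3.48-fold enrichment, above only 6.15% of all peaks. The first 2 had a GC content of 72.3% and 62.4%.

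Twist1, Twist2 and Msc each had a single distal peak without a Pax motif. Twist1 (ENSMUSG00000035799.5, plus strand of chromosome 12, 34642536 to 34644682), which is needed in cranial mesoderm and neural crest, had a peak from 34663993 to 34664302, 21.6 kb downstream of its TSS. Its fold enrichment was 4.48, above 30.2% of all peaks. The Twist2 peak (ENSMUSG00000007805.3, plus strand of chromosome 1, 93698038 to 93744605), from 93757650 to 93757995, was 59.8 kb downstream of the TSS and 13.2 kb beyond the gene. It had 6.44-fold enrichment, above 71.3% of all peaks, and GTCAC 20 bp from the summit. The Msc peak (ENSMUSG00000025930.5, minus strand of chromosome 1, 14743427 to 14746047), from 14706170 to 14706434, had 5.76-fold enrichment and was 39.7 kb downstream of the TSS. It was slightly nearer to the TSS of Gm9947, at 39.2 kb. All 3 peaks were intergenic, and 75.2% of all protein-coding genes had at least as many peaks as each of these genes.

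The Twist genes adjoin genes of class IIa histone deacetylases. The Twist1 peak lay within 100 kb of Hdac9 and of Ferd3l as well, and the Twist2 peak within 100 kb of Hdac4, though each was nearest to the TSS of its Twist gene. Over all 8 genes, 25 of the 28 peaks had the listed gene as the nearest protein-coding TSS. The exceptions were the Msc peak, a 3.76-fold peak beyond Zeb1 that was nearer to Arhgap12, and a 4.53-fold peak in an intron of Zeb2 that was nearer to Gtdc1. When noncoding transcripts were included, 16 of the 28 had the listed gene nearest. The peak list does not show which gene a peak acts on. The paper also overlaid its Pax7 peaks on promoter contacts mapped by promoter-capture Hi-C, which were not used here.

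By position, 17 of the 28 summits were in introns, 10 were intergenic and 1 was in an untranslated exon. Only 2, at Snai1 and Zeb2, lay within 1 kb of a protein-coding TSS (7.14%, interval 1.98% to 22.6%), beside 13.9% of all peaks. The peaks were 174 to 439 bp wide. Their median width was 261 bp, beside 252 bp for all peaks.

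Pax motifs were searched as exact letters, on either strand, up to 50 bp from each summit. They were the paired-box core GTCACG, the paired-box and homeobox sequence ATTAGTCA, which can overlap the core, and the palindromic homeodomain dimer sites known as P2 and P3, in which TAAT and ATTA are separated by 2 or 3 bases. At least 1 was present at 5 of the 28 peaks (17.9%, interval 7.88% to 35.6%), beside 15.4% of all peaks. The core accounted for 4 of these and ATTAGTCA for 1. In windows of the same 101 bp centred 500 bp to the left or right of the summit, 0 of the 28 held a Pax motif, which allows a share of up to 12.1% (upper Wilson bound), and 2.05% and 2.25% of all peaks did. A control sequence, GCACTG, was also found at 5 of the 28 summits, all of them at Zeb1 or Zeb2, beside 6.86% of all. In the left and right flanks it was at 3 and 2 of the 28, and at 5.79% and 5.84% of all peaks. Some of its sites lay close to the shortened core, and at the highest Zeb2 peak it overlapped GTCAC. A share of this size at the 28 summits thus also arose for a sequence outside the searched Pax motifs. Whether that sequence occurs independently of the core was not tested. The 5 peaks with a Pax motif had a fold enrichment from 4.48 to 21.7 with a median of 6.10, and the 23 without one ranged from 3.36 to 13.4 with a median of 5.04. Over all peaks these medians were 5.58 and 5.12.

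**Figure D3:**
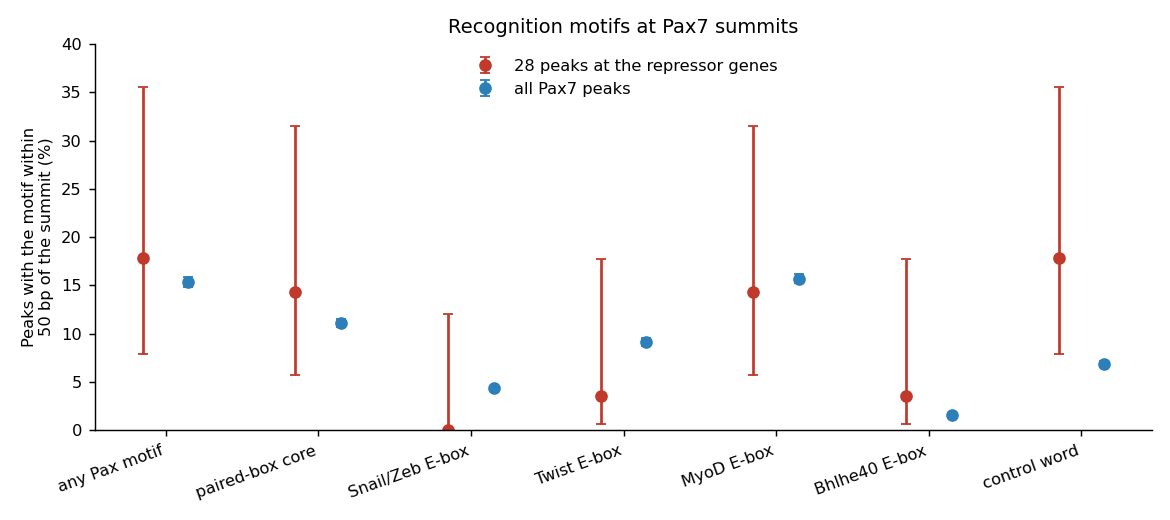
Share of peaks (y axis, in percent) with each motif (x axis) within 50 bp of the summit, for the 28 peaks at the repressor genes and for all 20579 Pax7 peaks. Points are shares and bars are 95% Wilson intervals for counting error, and the intervals of the 28 contain the share of all peaks except at the control sequence, where 17.9% stands beside 6.86%.

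The E-boxes that these factors themselves recognise were searched in the same windows. CAGGTG, the preferred site of Snail and Zeb proteins, was at 0 of the 28 (4.35% of all peaks), and CATCTG, a Twist-type E-box, at 1, the 3.47-fold peak beyond Zeb1 (9.12% of all). CAGCTG, a site of MyoD and other bHLH factors, was at 4, of which 2 were at Zeb1 and 2 at Zeb2 (14.3%, beside 15.7% of all). CACGTG was at 1, the Bhlhe40 peak described above (3.57%, beside 1.59% of all). The 95% Wilson interval of each of these shares contained the share of all peaks. In all peaks CAGCTG was more frequent at the summit than in the flanks (4.53% and 4.59%), whereas CAGGTG was not (6.57% and 6.42%). These are matches of letters, and no binding of the E-box factors was measured.

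For comparison, 15 genes with related roles were counted in the same way, and all of them had at least 1 peak within 100 kb, as did 75.2% of all protein-coding genes, with a median of 2 and 56 in total. Of these 56 peaks, 20 had the related gene as the nearest protein-coding TSS, and Scx, Tcf15, Hand1, Ctbp1 and Fn1 had 0 such peaks. Of the paralogs, Snai3 had 6 peaks, 2 of them nearest to its TSS, and the highest, 5.71-fold, was 66.0 kb upstream. Bhlhe41 had 1 of 4.33-fold at 5.89 kb upstream of its TSS, and Tcf21, the closest relative of Msc, had 1 of 3.67-fold. Among other bHLH relatives, Scx, Tcf15, Hand1 and Hand2 had 1, 2, 3 and 2 peaks, of which the highest was 7.54-fold, 6.99 kb downstream of the Hand2 TSS. Tcf12, an E protein that pairs with Twist factors, had 12 peaks, of which 4 were nearest to its TSS. The highest of these 12, 14.5-fold, was 292 kb downstream of the Tcf12 TSS. The E protein Tcf3 had 1 of 3.55-fold within 297 bp of its TSS. The corepressors Ctbp1 and Ctbp2 had 1 and 5. Of the mesenchymal genes, Prrx1 had 9, of which 5 were nearest to its TSS, and the highest, 15.8-fold, was 77.8 kb upstream. Vim had 9 of at most 5.35-fold, of which 1 was nearest to its TSS. Fn1 had 1 of 9.94-fold, 146 kb downstream of its TSS. Cdh1, which encodes E-cadherin, the classical target of Snail and Zeb repressors, had 2 peaks of up to 9.18-fold.

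**Figure D4:**
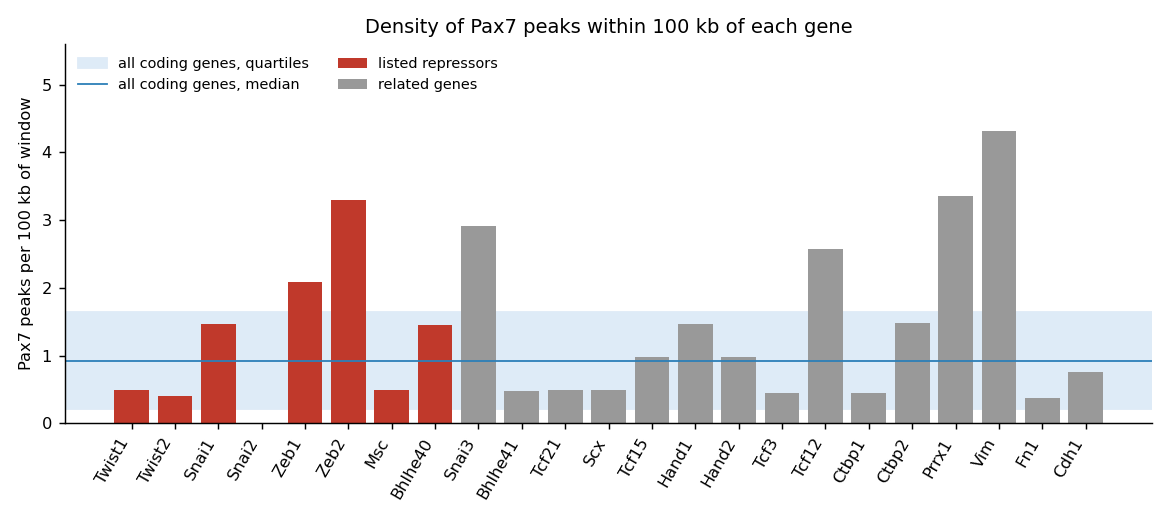
Pax7 peaks per 100 kb of window (y axis, bars from 0) at the 8 repressor genes and at the 15 related genes (x axis), with the quartiles (0.204 to 1.64) and the median (0.916) of all protein-coding genes. Zeb2 at 3.30 and Zeb1 at 2.09 lie above the upper quartile, and so do the related genes Snai3, Tcf12, Prrx1 and Vim.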

How the data were processed

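The data were 1 list of Pax7 peaks from Dox-treated iPax7 progenitors, made from 2 ChIP and 2 input libraries. For this list, the authors mapped reads to NCBIM37/mm9 (bowtie2 2.3.4.1), filtered duplicates (Picard 1.88) and ran MACS2 2.1.1 on the merged libraries with a q-value limit of 0.01. Per peak, the deposited list holds a fold enrichment (a ratio over local background), the −log10 q-value, a score derived from it, a −log10 p-value that was not used, and the summit. No column holds a value for a single library, and read depth is not in the list.

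Summits were placed on NCBIM37 and GENCODE vM1 with 1-based coordinates. All 8 genes are named. The 3 highest peaks of each gene, those within 1 kb of its TSS and the one nearest to its TSS are described singly. The genes and lists were chosen with earlier results of these data known. The motif search and the counting of peaks in gene windows were tested on simulated data. Sequence of the Zeb2 peak in an untranslated exon and of chromosome 18 is not shown. Computations were run in Python 3.11.15 with samtools 1.23.1, pysam 0.24.0, scipy 1.17.1, pandas 2.3.3, numpy 2.4.6 and, for plots, matplotlib 3.10.9. Alternatives were windows of 25, 50 and 250 kb, a minimum fold enrichment or −log10 q of 5, merging within 500 bp, overlap by 1 bp, motif windows of 25 and 100 bp, other TSS sets and, added after the data had been seen, the core shortened to GTCAC.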

Additional observations from a re-analysis of the deposited data

How the results depend on the processing

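The 28 peaks became 46 with a window of 250 kb and 15 with a fold enrichment of at least 5. They stayed within 1.5 times at 25 and 50 kb (19 and 23), at a −log10 q of at least 5, after merging and by overlap. At 250 kb Twist2 had 6 peaks and Snai2 had 1, while Zeb2 stayed at 11. At 25 kb Zeb1 had 3, and Msc had 0. With a fold enrichment of at least 5, Zeb2 had 6 peaks, Zeb1 had 3, Bhlhe40 had 1 and Twist1 had 0. The Zeb genes then held 9 of the 15, and the counts of Snai1, Twist2, Msc and Snai2 did not change. Peaks nearest to a listed gene numbered 25, 21 with 1 TSS per gene, and 16 when the TSSs of all annotated transcripts were used. The share with a Pax motif was 17.9% at 25, 50 and 100 bp, while over all peaks it was 9.88%, 15.4% and 19.8%, so whether the share stood above that of all peaks depended on the window. With the core shortened to GTCAC it was 46.4%, beside 34.6% of all peaks. The median fold enrichment ranged from 5.03 to 5.76 over its alternatives. No paired analysis was possible because the replicates were merged before peak calling, and for the same reason no replicate could be left out. The list states no depth, so weak peaks missed by the caller cannot be counted.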

Other observations

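Pax7 peaks with more than 1 paired-box core were looked at over the whole list, after the Snai1 promoter had been seen. Median fold enrichment was 5.13 for peaks without the core within 50 bp of the summit, 5.56 for the 2183 peaks with 1 core and 6.50 for the 109 peaks with 2 or more. These are medians over peaks, which are not replicates, and no test was made. The Snai1 promoter, at 21.7-fold, was above all of these medians.

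Close pairs of peaks were found at both Zeb genes. Summits 422 bp apart stood beyond the end of Zeb1 (8.63-fold and 3.47-fold), and summits 659 bp apart stood in an intron of Zeb2 (5.41-fold and 4.48-fold). A neighbouring summit within 1 kb was present for 4 of the 28 peaks (14.3%), beside 8.53% of all peaks. These 4 were the members of the pairs just named. The median gap to the nearest summit was 10.2 kb, beside 19.8 kb. As 19 of the 28 peaks were at the Zeb genes, this median mainly describes those genes.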
